A study of Mus musculus with 3 samples.

Results

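The 36 mouse genes described here encode the Wnt ligands and the secreted or secretory-pathway proteins that modulate them. The rule that takes them uses gene symbols and no signals: the 19 Wnt genes, the secreted frizzled-related proteins with Frzb and Wif1 (6 genes), Dkk1 to Dkk4, Rspo1 to Rspo4, and Porcn, Wls and Notum. All 36 genes that RefSeq lists under these symbols had a probe set of their own, among 18193 named genes on the array. They were read by 62 of 45037 probe sets. Expression was measured in cap mesenchyme sorted from embryonic mouse kidneys, a single group of 3 arrays called pools 1, 2 and 3. All embryos were of strain CD-1 at E15.5 (Theiler stage 23) and of unknown sex, and carried the transgene Tg(Six2-EGFP/cre)1Amc, in which Six2 regulatory sequence drives EGFP and cre. Each array held RNA from roughly 5 to 10 kidneys, and the labels do not say whether the pools came from separate litters, so p-values measure the spread between these 3 samples only. There was no control group and no second cell population.

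Wnt proteins are lipid-modified ligands that bind Frizzled receptors, with Lrp5 or Lrp6 as co-receptor when the signal runs through beta-catenin. In the developing kidney, Wnt9b from the ureteric bud instructs the surrounding cap mesenchyme both to renew itself and to begin nephron formation, and Wnt4, made by the induced cap cells themselves, drives their conversion to epithelium. Secreted modulators set the reach of these signals: frizzled-related proteins and Wif1 bind Wnts, Dkk proteins block the co-receptor, and R-spondins raise receptor levels at the cell surface.

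Values are linear array signals, which the authors had scaled to a common mean on each array. A probe set was called above background when log2(signal + 16) exceeded a background level taken from the same array, by a one-sided limma test whose p-values were Benjamini-Hochberg adjusted over all probe sets. That background level was the 95th percentile of 150 probe sets for sensory receptor, hair and defensin genes, and lay at a signal of 197, 186 and 201 in pools 1, 2 and 3. A gene was called when any of its probe sets was, and its brightest probe set gave the values below unless another is named. Probe sets differ in affinity, so signals of different genes are not ranked against each other, and a gene that was not called is not shown to be unexpressed. In bulk RNA, a transcript held by few cells cannot be told apart from one held weakly by many.

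In the sorted cells all 10 cap mesenchyme markers were above background, among them Cited1, Eya1 and Gdnf, compared with 54.4% of all named genes. Six2 passed too, but its regulatory sequence drives the EGFP of these cells, so its call is no separate sign of their identity. Of 9 measured ureteric markers 2 passed, Krt8 and Krt18, while Ret, Gata3, Calb1, Cdh1, Esrp1, Aqp2 and Krt19 did not. The ureteric count was 0 or 1 when any single pool was left out. Stromal markers passed in 10 of 12 cases, Foxd1 and Col3a1 included. Podocyte markers passed in 1 of 4 cases. None of 6 endothelial, 5 macrophage and 4 erythroid markers passed in limma, nor did any at an unadjusted p under 0.05. The log2 3' to 5' ratio of the actin controls was 1.82, 3.28 and 3.18 in pools 1, 2 and 3. The 5' signal was thus under the 3' signal in every pool, and least so in pool 1. The same ratio for Gapdh (4.36, 5.05 and 4.08) was also high and did not set pool 1 apart. All arrays had 2 rounds of amplification, so RNA quality and amplification cannot be told apart in these ratios.

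Of the 36 genes, 13 were above background (36.1%), compared with 54.4% of all named genes. By probe set the count was 21 of 62, against 41.5% of all probe sets. The 13 were Wnt4, Wnt5b, Wnt7b, Wnt9a and Wnt11 among the ligands, Sfrp1, Sfrp2 and Frzb among the soluble inhibitors, Dkk3, Rspo1, Rspo3, and the ligand-processing genes Porcn and Wls. The median log2 distance of the 36 genes from background was 0.10, against 1.20 over all named genes. In 15 of the 36 the signal exceeded the background level in all 3 pools, which 57.1% of all named genes did. In 14 it did so in none. The matching share of all named genes was not computed, so this count is not read as high or low. The 13 calls stayed when any single pool was left out.

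**Figure D1:**
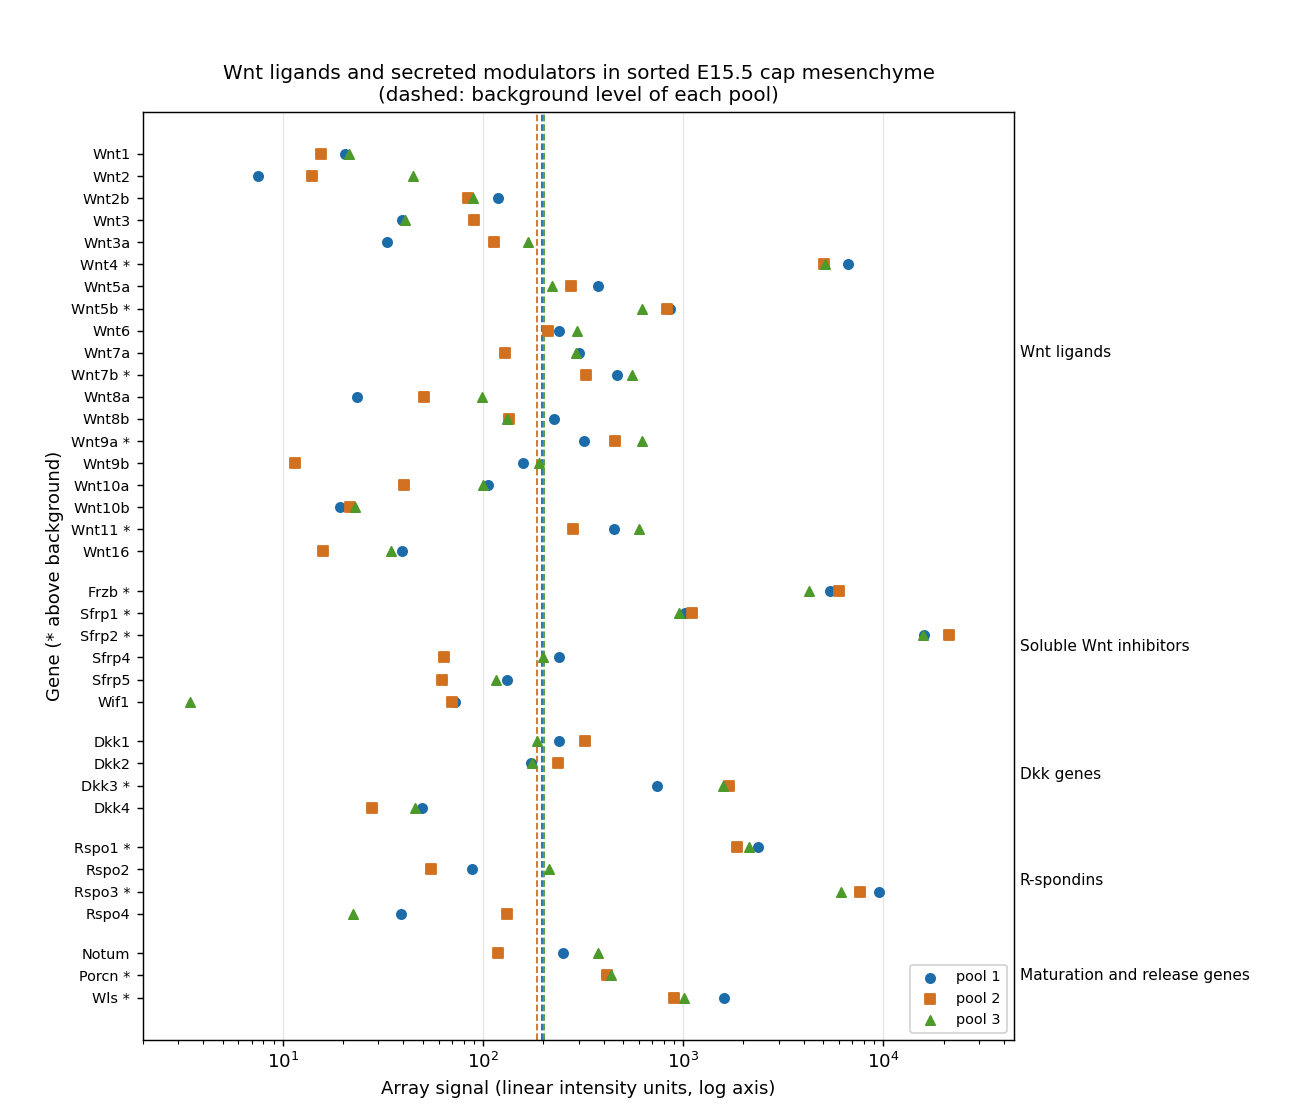
Array signal (log axis) of the brightest probe set of each of the 36 genes, with 1 point per pool and the background level of each pool as a dashed line; genes marked with a star were above background. The stars cover 5 of 19 Wnt ligands, and Wnt4, Sfrp2, Frzb and Rspo3 lie well to the right of the dashed lines in every pool.

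Among the 19 ligands 5 were above background (26.3%), compared with 54.4% of all named genes. Wnt4, the autocrine inducer of nephron epithelium, had signals of 6693, 5061 and 5138 in pools 1, 2 and 3. All 3 pools were far over the background level, and the mean was 5631 ± 921 (SD, n = 3; log2 over background 4.73, SE 0.13; adjusted p = 2.54e-08, limma). The second Wnt4 probe set read 4566, 4913 and 2924 and passed as well (adjusted p = 2.18e-07, limma). Both probe sets of the gene thus placed it above background, with the lowest pool differing between them.

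Wnt5b, a ligand known mainly for signalling outside the beta-catenin route, was at 855.7, 830.3 and 621.8 (adjusted p = 3.04e-05, limma), with pool 3 lowest. Its other probe set also passed, close to the threshold, at 281, 373 and 281 (adjusted p = 0.0475, limma). Both Wnt5b probe sets are of types that may match several transcripts. Its paralog Wnt5a, which directs convergent extension and outgrowth in many organs, read 374, 276 and 221. These signals were over the background level in every pool but missed the threshold (log2 over background 0.51, SE 0.27; adjusted p = 0.113, limma). The other 3 Wnt5a probe sets were under background, with mean signals of 92.4, 67.4 and 38.3.

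Known ligands of the ureteric bud were split. Wnt9b, the bud signal that acts on the cap, was under the background level in all pools at 158, 11.5 and 191, and its second probe set averaged 36.6. Wnt11, which the bud tips make, was called at 454, 282 and 599.6 (adjusted p = 0.00489, limma). Wnt7b, made by the stalk and needed for the medulla, was called at 467, 326 and 553.5 (adjusted p = 0.00215, limma), but its second probe set averaged 44.3 and did not pass. For both called genes pool 3 was highest and pool 2 lowest, and the mean log2 distance from background was 1.07 for Wnt11 and 1.11 for Wnt7b. Wnt6, also described in the bud, read 240.2, 210.6 and 297 and did not pass (adjusted p = 0.29, limma). The summed signal of the 9 ureteric markers had the same order of pools, at 1214, 861 and 1562, with Gata3 and Esrp1 below 10 in every pool. The markers did not share that order. Krt18, Calb1, Cdh1, Gata3 and Esrp1 had it, whereas Krt8 (281, 324 and 448), Ret, Aqp2 and Krt19 did not. The part of ureteric cells in the Wnt7b and Wnt11 signals was not tested. The order of pools of Wnt7b and Wnt11 was found in 18.8% of all named genes above background. Neither gene passed when the background level was set at the 99th percentile. That level lay at signals of 486, 379 and 477 in pools 1, 2 and 3.

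Wnt9a, a ligand of joint and cartilage formation, had signals of 319.7, 456 and 622. It passed on this probe set (adjusted p = 0.00289, limma), while its second averaged 58.2 and did not. Wnt9a was not called either with background at the 99th percentile. None of the remaining ligands was called. Wnt7a (302, 128 and 292) and Wnt8b (225, 135 and 132) each exceeded the background level in at least 1 pool without passing the test. Wnt1, Wnt2, Wnt2b, Wnt3, Wnt3a, Wnt8a, Wnt10a, Wnt10b and Wnt16 were, like Wnt9b, under it in all 3 pools. Mean signals of the 14 ligands that were not called ran from 19.1 for Wnt1, the founding member with a role in midbrain formation, to 291 for Wnt5a.

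Several Wnt genes are chromosomal neighbours, and in RefSeq 4 pairs of the 36 genes lie next to each other among protein-coding genes. These are Wnt6 with Wnt10a, Wnt3a with Wnt9a, Wnt9b with Wnt3, and Wnt10b with Wnt1. In 3 pairs neither gene was above background, and in 1, Wnt3a with Wnt9a, a single gene was. Wnt3a, the ligand of the tail bud and its progenitors, read 33.2, 114 and 167, under background in each pool, next to the called Wnt9a. The RefSeq promoter windows of this pair and of Wnt4 are shown to compare a called and an uncalled neighbour with the clearly called ligand. Each holds the 250 bases before the annotated start (build GRCm38.p6), 5′ to 3′ on the gene's strand, with every CpG dinucleotide in capitals.
Wnt4, chr4:137277385-137277634, plus strand: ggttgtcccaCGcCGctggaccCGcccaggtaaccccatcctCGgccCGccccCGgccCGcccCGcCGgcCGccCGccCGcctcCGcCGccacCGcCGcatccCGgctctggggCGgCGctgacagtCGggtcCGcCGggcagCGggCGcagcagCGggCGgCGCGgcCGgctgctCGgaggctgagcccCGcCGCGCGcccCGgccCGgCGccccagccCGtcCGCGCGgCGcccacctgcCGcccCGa
Wnt9a, chr11:59306680-59306929, plus strand: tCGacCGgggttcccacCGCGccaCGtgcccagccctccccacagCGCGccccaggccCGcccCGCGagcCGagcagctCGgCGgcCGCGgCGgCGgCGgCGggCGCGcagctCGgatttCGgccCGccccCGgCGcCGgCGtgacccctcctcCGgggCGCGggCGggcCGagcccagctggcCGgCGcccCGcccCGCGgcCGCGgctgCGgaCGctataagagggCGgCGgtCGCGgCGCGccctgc
Wnt3a, chr11:59290752-59291001, minus strand: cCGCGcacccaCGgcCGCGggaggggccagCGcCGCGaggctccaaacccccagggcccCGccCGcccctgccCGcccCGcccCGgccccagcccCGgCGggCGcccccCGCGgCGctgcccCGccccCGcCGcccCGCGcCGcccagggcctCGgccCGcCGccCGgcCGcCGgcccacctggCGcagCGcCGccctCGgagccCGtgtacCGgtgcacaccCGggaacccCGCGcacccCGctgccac
All 3 windows were dense in CpG, with 44 in Wnt4, 48 in Wnt9a and 41 in Wnt3a. The table held windows for 24 of the 36 genes (27 windows). Windows of the 16 members that were not called had a median of 21.5 CpG, compared with 5 in windows of all named genes that were not above background. Those of called members had a median of 16 (11 windows), compared with 17 in windows of all named genes above background. The order of the 2 member medians rests on genes with several windows: with the richest window of each gene, a choice made after seeing the data, the medians were 28.5 for the 8 called members and 21.5 for the 16 uncalled ones. The same medians over all named genes were 18 above background and 6 not above it. No direction is read from the members' called and uncalled windows, while uncalled members were richer in CpG than uncalled genes at large both ways, a description without a test.

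**Figure D2:**
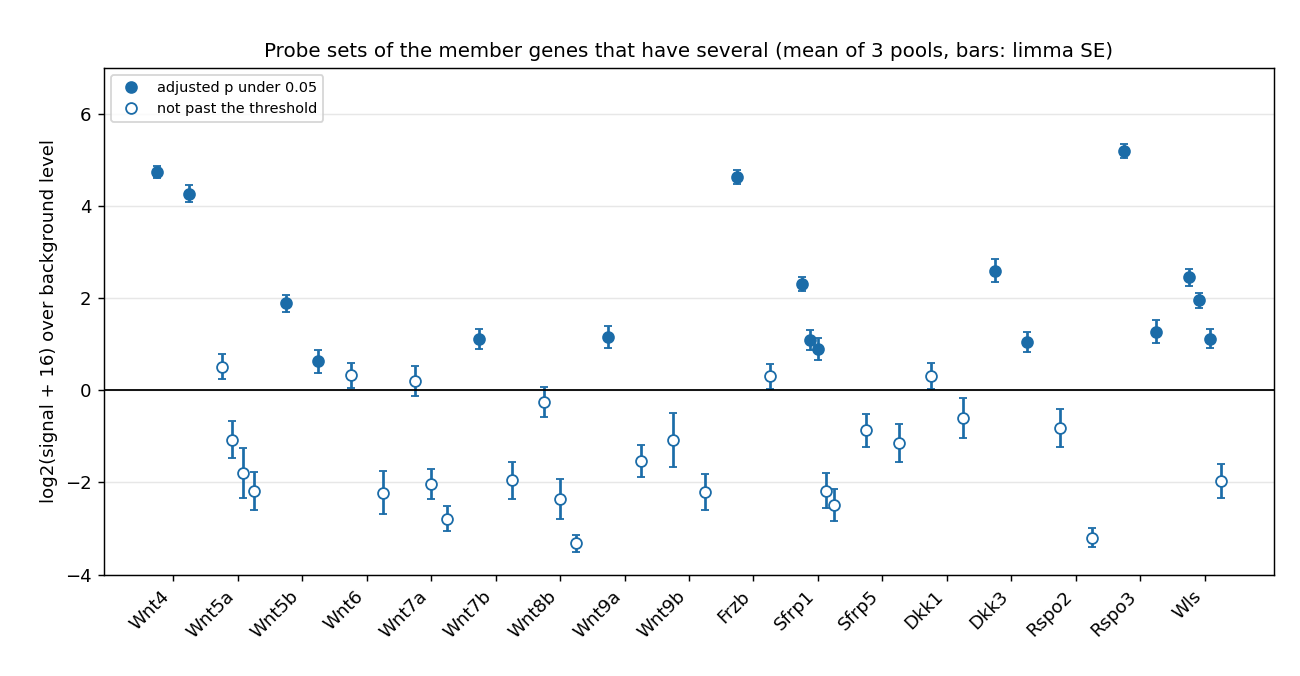
Log2(signal + 16) over the background level for every probe set of the 17 member genes that have several; points are means of the 3 pools, bars are limma standard errors, and filled points have an adjusted p under 0.05. Wnt4, Wnt5b, Dkk3 and Rspo3 are filled throughout, whereas Wnt7b, Wnt9a, Frzb, Sfrp1 and Wls have points on both sides of the threshold.

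Of the 6 soluble inhibitors that bind Wnts, 3 were above background, a share (50%) close to that of all named genes. Sfrp2, a secreted decoy with a Frizzled-like cysteine-rich domain that induced nephron precursors express, read 15917, 21198 and 15874. Pool 2 was highest, and all pools were far over background (log2 over background 6.38, SE 0.16; adjusted p = 1.61e-08, limma). Frzb, also known as secreted frizzled-related protein 3, read 5442, 6029 and 4251 (log2 over background 4.63, SE 0.15; adjusted p = 4.89e-08, limma). Its other probe set, at 252, 284 and 202, was barely over background and did not pass (adjusted p = 0.332, limma).

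Sfrp1, an inhibitor also made by kidney stroma, was at 1024, 1105 and 958 (adjusted p = 2.84e-06, limma), and its pools differed little. Of its 5 probe sets 3 passed, and the other 2 had means of 36.0 and 24.8. Sfrp4 (239, 63.5 and 200.1), Sfrp5 (131, 62.5 and 116) and Wif1 (72.6, 70.3 and 3.42) did not pass. Of these, Sfrp4 alone exceeded the background level in any pool, namely in pool 1. Stromal markers, 10 of 12 of which passed, summed to 37478, 35698 and 29869 in pools 1, 2 and 3. Their members did not share 1 order of pools, since Foxd1 (7370, 7389 and 7938) and Tcf21 (1743, 1150 and 1887) were highest in pool 3. Sfrp1, Sfrp2 and Frzb were all lowest in pool 3, as were 24.8% of all named genes above background. The part of stromal cells in these signals was not tested.

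Of the 4 Dkk genes 1 was above background (25%, against 54.4% of all named genes), namely the divergent member Dkk3. With 4 genes, nothing is read from which of them passed. Dkk3, which unlike its relatives is not known as a blocker of the Wnt co-receptor, had signals of 739, 1686 and 1578. Pool 1 stood apart below the other 2, and the highest pool was 2.28-fold over the lowest. The mean was 1334 ± 518 (SD, n = 3; adjusted p = 3.09e-05, limma), and the second probe set passed at 459.8, 433 and 369.9 with no such gap. Pool 1 was also the pool with the lowest actin ratio, whereas its Gapdh ratio (4.36) lay between those of pools 3 and 2 (4.08 and 5.05). The part of either ratio in the Dkk3 gap was not tested. Dkk1, the classical co-receptor blocker and itself a target of beta-catenin signalling, read 239, 325 and 187. It was over background in 2 pools and did not pass (adjusted p = 0.356, limma). Dkk2 (174, 237 and 175) and Dkk4 (49.8, 27.9 and 45.5) did not pass either.

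TCF and LEF factors carry the beta-catenin signal to DNA, and their core site was searched in the promoter windows on both strands, as the letters CTTTG followed by A or T at each of the next 2 positions. It was found in 3 of the 27 member windows (11.1%), compared with 11.9% of windows of all named genes and 14.8% of all windows. They belonged to Dkk1, Wnt11 and Wnt5b, the last with 1 of its 3 windows. Those of Wnt11, which was called, and Dkk1, which was not, are printed with the match in capitals; the match in Wnt11 lies on the reverse strand.
Wnt11, chr7:98834862-98835111, plus strand: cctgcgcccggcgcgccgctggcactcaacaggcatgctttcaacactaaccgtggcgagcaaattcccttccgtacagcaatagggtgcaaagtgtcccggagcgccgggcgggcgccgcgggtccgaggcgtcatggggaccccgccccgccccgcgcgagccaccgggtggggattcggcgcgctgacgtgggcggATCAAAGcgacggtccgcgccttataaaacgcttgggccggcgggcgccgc
Dkk1, chr19:30549497-30549746, minus strand: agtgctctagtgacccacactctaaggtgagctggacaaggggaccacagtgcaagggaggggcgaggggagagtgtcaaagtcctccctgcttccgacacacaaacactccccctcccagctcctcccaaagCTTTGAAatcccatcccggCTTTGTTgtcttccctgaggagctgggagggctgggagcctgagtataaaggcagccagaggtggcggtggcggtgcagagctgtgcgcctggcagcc
Dkk1 held 2 matches and Wnt11 held 1. The TATA box letters TATAAA, on either strand, were present in 4 member windows (14.8%), those of Dkk1, Dkk2, Wif1 and Wnt11, compared with 8.81% of windows of all named genes. The letters TCAGGTT, a core of the site of sine oculis factors such as Six2, were in 0 member windows and in 3.08% of windows of all named genes. A match of letters is a description and does not show a site in use.

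Of the 4 R-spondins 2 were above background, a share (50%) close to the 54.4% of all named genes. They were Rspo1 and Rspo3, both known from the nephron progenitor niche. Rspo1, which binds Lgr receptors and thereby keeps Frizzled receptors at the surface, read 2354, 1859 and 2123 (2112 ± 248, SD, n = 3; adjusted p = 1.28e-07, limma). The pools of Rspo1 stayed within 1.27-fold of each other. Rspo3, which shares this role, read 9548, 7618 and 6166 (log2 over background 5.19, SE 0.16; adjusted p = 3.41e-08, limma). Pool 1 was highest and pool 3 lowest, an order found in 13.8% of all named genes above background. A second Rspo3 probe set, at 381, 718 and 431, passed too (adjusted p = 0.00197, limma), but there pool 2 was highest. Rspo2 (88.6, 54.7 and 213), known from limb and lung, and Rspo4 (38.8, 132 and 22.5), known from nail formation, did not pass.

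Of the 3 genes Porcn, Wls and Notum, 2 were above background (66.7%, against 54.4% of all named genes). These 2, Porcn and Wls, make Wnt proteins active and release them. Porcn, the enzyme of the endoplasmic reticulum that attaches the lipid to Wnts, read 410.4, 418 and 435. It had the smallest gap between pools of the 13 called members, 1.06-fold (adjusted p = 0.00176, limma), and was not called with background at the 99th percentile, which its signal exceeded in pool 2 only. Wls, the carrier that takes lipidated Wnts to the surface, was at 1599, 901 and 1011 with pool 1 highest (adjusted p = 7.97e-06, limma). Of its 4 probe sets 3 passed. Notum, the secreted enzyme that removes the lipid again, read 252, 119 and 375. Its pools fell on both sides of background, and it did not pass (adjusted p = 0.617, limma). The promoter window of Wls is printed beside the 3 CpG-dense windows above as a called gene with few CpG, 8 in the same 250 bases, again in capitals; some ligand windows were as poor, such as that of Wnt8b with 5.
Wls, chr3:159839400-159839649, plus strand: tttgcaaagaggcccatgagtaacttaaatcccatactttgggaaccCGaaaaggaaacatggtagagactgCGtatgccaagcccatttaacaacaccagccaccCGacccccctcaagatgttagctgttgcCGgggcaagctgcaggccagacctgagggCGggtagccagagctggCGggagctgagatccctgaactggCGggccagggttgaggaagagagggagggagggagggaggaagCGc

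Between pools the called members varied about as much as other genes. The highest pool was a median of 1.42-fold over the lowest for the 13 genes, compared with 1.36-fold over all named genes above background. The gap reached 2-fold in 2 of the 13, Dkk3 and Wnt11 (2.13-fold), and in 7.36% of all named genes above background. Pool 1 was highest for 5 of the 13 genes, pool 2 for 4 and pool 3 for 4, whereas over all named genes above background the shares were 29.5%, 27.5% and 43%.

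**Figure D3:**
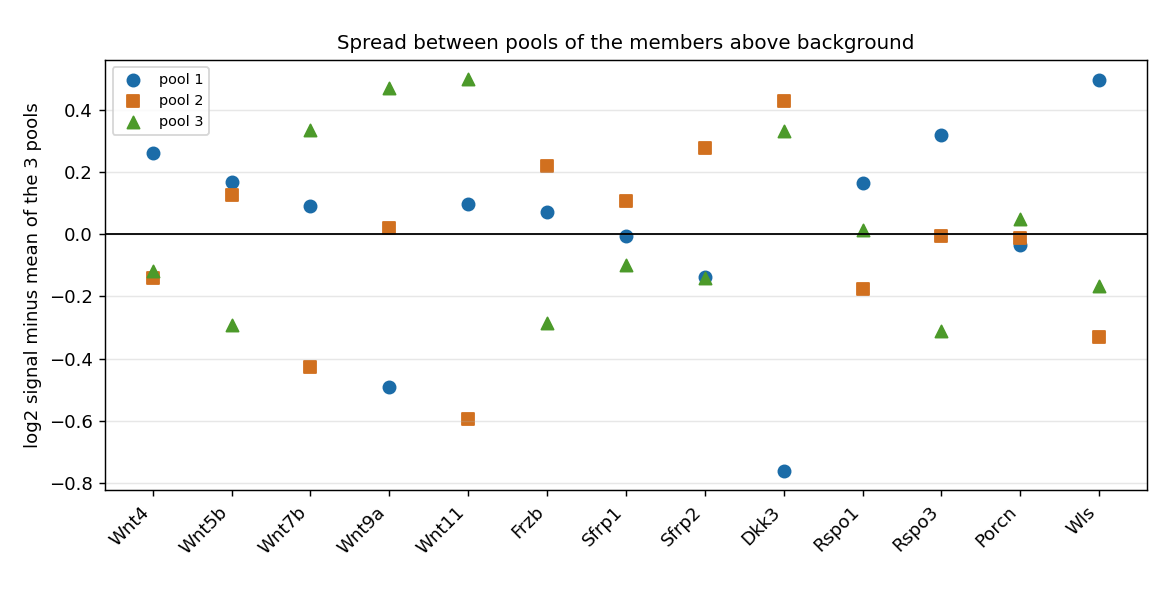
Log2 signal of each pool minus the mean of the 3 pools for the 13 genes above background. Dkk3 shows pool 1 below the others and Wnt11 shows pool 2 lowest, while the points of Porcn and Sfrp1 lie close together.

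The machinery to receive these ligands was measured with lists of other pathway genes. Of 22 receptor genes 15 were above background (68.2%, against 54.4% of all named genes). Among the Frizzled genes Fzd1, Fzd2, Fzd3, Fzd4, Fzd6 and Fzd7 passed, and Fzd5, Fzd8, Fzd9 and Fzd10 did not. For the R-spondins, the receptor Lgr4 was at 5111, 6085 and 5674 (adjusted p = 2.02e-08, limma), and Lgr5 did not pass (mean 105 ± 13.7, SD, n = 3). Lgr6 was close to background at 257, 495 and 329 (adjusted p = 0.0274, limma). The receptor-removing ubiquitin ligase Znrf3, whose action R-spondins counter, was at 1926, 1617 and 2306, whereas its relative Rnf43 stayed at 9.46, 28.1 and 21.3. For the Dkk proteins, the co-receptor Lrp6 was at 8242, 5985 and 10626, while Lrp5 did not pass at 30.1, 7.78 and 6.21. The Dkk-binding Kremen1 was at 598, 772 and 1084. Receptors of Wnt5-type ligands also passed, with Ror2 at 2654, 2631 and 3292, Ror1 at 1317, 1088 and 1063, and Ryk at 8393, 7828 and 9441. All of these called values had an adjusted p of 4.71e-05 or less in limma except that of Lgr6.

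Intracellular transducers passed in 16 of 19 cases (84.2%, against 54.4% of all named genes). Ctnnb1, which encodes beta-catenin, read 61276, 103490 and 60658, with pool 2 highest. The nuclear factors Lef1 (1048, 1366 and 1624) and Tcf7l2 (2227, 2738 and 1747) passed, and Tcf7l1, which often represses targets, read 10782, 4586 and 3320, more than 2-fold higher in pool 1 than in either other pool. Dvl3, Apc2 and Bcl9l did not pass.

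Of 15 target and feedback genes of the pathway 8 were above background (53.3%), close to the 54.4% of all named genes, in a list that includes the members Notum, Dkk1 and Wif1. Axin2, the general feedback inhibitor, read 2292, 2285 and 2275, nearly equal in all pools (adjusted p = 7.71e-08, limma). Nkd1, another intracellular inhibitor, was at 1781, 1621 and 1537, and the membrane inhibitor Apcdd1 at 1525, 1318 and 1250. The transcription factor Sp5 was at 541, 834 and 910 (adjusted p = 6.73e-05, limma). Nkd2, Sp8, Lgr5 and Rnf43 did not pass, nor did the 3 members. Of 10 genes of early nephron induction, Wnt4 among them, 8 passed: Pax8 was at 1540, 1760 and 2579 and Lhx1 at 576, 675 and 758, while Fgf8 and Osr2 did not pass.

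In the counts above, a gene passed when any of its probe sets did. With the probe set of median brightness alone deciding, calls fell to 10 of the 36 members and 3 of the 19 ligands. Those of all named genes fell to 7090 of 18193. Where a gene had an even number of probe sets, the dimmer of the middle pair was taken, thus the dimmer of 2. The same choice left 5 of 22 receptors, 11 of 19 transducers, 4 of 15 target genes and 5 of 10 induction genes. These counts were down from 15, 16, 8 and 8. The shares of receptors and target genes were then under that of all named genes. With any probe set deciding, the receptor share was over it and the target share close to it.

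**Figure D4:**
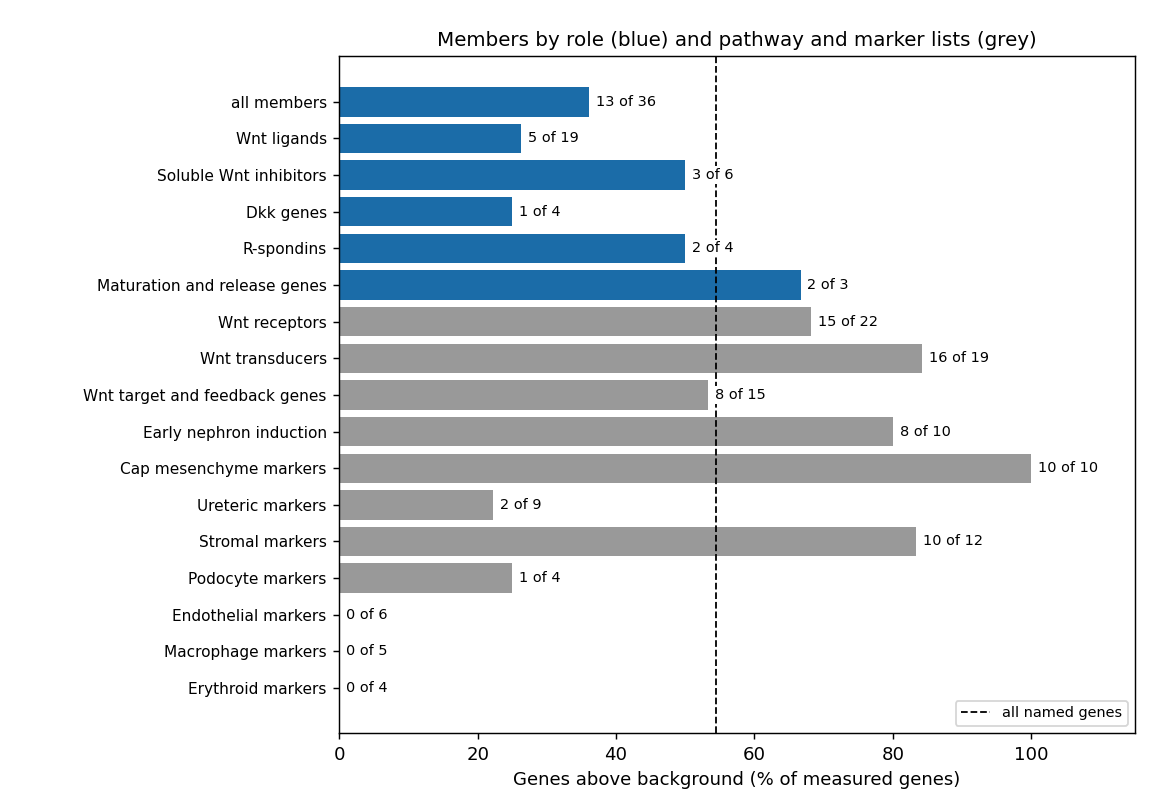
Percentage of measured genes above background for the members by role (blue) and for the pathway and marker lists (grey), with counts beside the bars and the share of all named genes as a dashed line at 54.4%. The bar of the Wnt ligands ends at 5 of 19, left of the line, and that of the transducers at 16 of 19, right of it.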

How the data were processed

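Per the labels, kidneys were trypsinised for 5 minutes at 37 °C, filtered through a 70 micron mesh and sorted by fluorescence, and total RNA went through 2 rounds of amplification. The deposited values are intensity signals on a linear scale, made by the authors with GCOS per the submitters' processing notes; version and settings are not given in the sources used here. The mean signal without the lowest and highest 2% was 1500 on each array, as tested on the values. Of 45101 probe sets, 64 controls were left out, and genes were named from the platform annotation only where a probe set has 1 symbol (34945 probe sets). An intercept-only limma 3.58.1 fit (R 4.3.3, eBayes with intensity trend) of log2(signal + 16) minus the background level was tested one-sided against 0, and adjusted p under 0.05 was called. The pseudocount understates distances of weak signals. The fit was tested on simulated data. Promoters came from RefSeq (GRCm38.p6), matched by symbol; the build behind the probe sets is not given in the sources used here, so coordinates are given for the RefSeq promoter windows only. Members, lists and tests were chosen with earlier results of these data known. All members and all genes of the fixed lists could be named. Alternatives were 3 left-out pools, 2 pseudocounts, 2 background percentiles, quantile normalization, the exclusion of probe sets that can match several transcripts, a minimum mean signal of 50, no intensity trend, and the median probe set of each gene. With 3 arrays, their number limits the precision.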

Additional observations from a re-analysis of the deposited data

How the results depend on the processing

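Of the 13 member genes above background, 7 kept their call under all 12 alternatives (Dkk3, Rspo1, Rspo3, Sfrp1, Sfrp2, Wls and Wnt4). Wnt5b kept it under the 11 that gave it a value; Porcn and Wnt5b had none when probe sets with several possible targets were left out. The member count was 9 at the 99th percentile of background, 14 at the 90th, where Wnt5a passed (adjusted p = 0.0249, limma; range over its alternatives 0.0249 to 1), and 13 without any single pool. At the 99th percentile 11 member probe sets, 2 ligands, 1 maturation gene, 6 stromal, 0 ureteric and 0 podocyte markers were called. There Porcn, Wnt11 and Wnt7b turned to log2 values of -0.076, -0.061 and -0.018, and Wnt9a lost its call at 0.02. At the 90th percentile 1 macrophage marker passed. Leaving out probe sets that can match several transcripts, 1 maturation gene and 1 ureteric marker were called, with fewer genes tested. Ureteric markers ranged from 0 to 1 when 1 pool was left out. With the median probe set, 3 ligands, 5 receptors, 4 target genes, 5 induction genes, 1 ureteric, 5 stromal and 0 podocyte markers were called. Frzb lost its call, and Wnt7b and Wnt9a turned to -1.96 and -1.54, each gene read by the dimmer of its 2 probe sets. Calling a gene on any of its probe sets favours genes with many. The other causes were not tested. Pseudocount, quantile normalization, minimum signal and trend changed no member gene's call. Signals near the background level limit Wnt7b, Wnt9a, Wnt11 and Porcn. No paired analysis was possible because there is a single group.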
